A study of Arabidopsis thaliana with 3 samples.

Results

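The miRNAs described here are those tied to the genes that make and use miRNAs in Arabidopsis. They are ath-miR162a and ath-miR162b, which target DCL1, ath-miR168a and ath-miR168b, which target AGO1, ath-miR403, which targets AGO2, and ath-miR838, which lies in a DCL1 intron. The species prefix is left out below. They were chosen by name, leaving out star rows, and all 6 are listed in each count file, among 328 miRNAs in the cdf2 file, 338 in the dcl1-9 file and 328 in the Col file. The series holds small RNA libraries from soil-grown 22-day-old seedlings, all labelled as ecotype Col and given no treatment, with 1 library each for the cdf2 mutant, the dcl1-9 mutant and the wild type (Col). The cdf2 mutant is impaired in CDF2, a DOF transcription factor, and dcl1-9 makes a DCL1 protein truncated in its C-terminal double-stranded RNA binding domains. How many plants went into each library is not given in the sources used here. With 1 library per genotype no difference has a replicate check, and every interval below covers counting error between 2 libraries only.

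DCL1 is the Dicer-like enzyme that cuts most plant miRNAs out of their hairpin precursors, and AGO1 is the Argonaute protein into which most of them are loaded to cut or repress target mRNAs. Both genes are under negative feedback by miRNAs, miR162 for DCL1 and miR168 for AGO1, and AGO2, an Argonaute known for antiviral defence, is held down by miR403. A DCL1 transcript can also be cut by DCL1 itself at the hairpin of miR838, which gives truncated mRNAs.

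The mature sequences, taken from RefSeq's annotation of the TAIR10.1 assembly, are shown because they decide which reads can be told apart. The seed, bases 2 to 8, is in capitals.
miR162a and miR162b: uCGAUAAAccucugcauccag
miR168a and miR168b: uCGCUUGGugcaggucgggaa
miR403: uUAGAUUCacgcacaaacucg
miR838: uUUUCUUCuacuucuugcaca
All have 21 bases and start with U, and no seed is shared between the 4 sequences. The miR162 sequence matches the nuclear genome perfectly at 2 places, which are the loci of miR162a (chromosome 5, 2634936 to 2634956, minus strand) and miR162b (chromosome 5, 7740610 to 7740630, minus strand). The miR168 sequence likewise has 2 perfect matches, at miR168a (chromosome 4, 10578652 to 10578672, plus strand) and miR168b (chromosome 5, 18358873 to 18358893, minus strand). A read of either sequence can therefore not be assigned to 1 of its loci. miR403 (chromosome 2, 19415154 to 19415174, plus strand) and miR838 (chromosome 1, 28635 to 28655, plus strand) each have 1 perfect match. Only the miR838 locus lies inside a protein-coding gene.

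The hairpins differ in which arm carries the mature miRNA and in the sequence between the arms. They are shown for the a loci of miR162 and miR168, chosen because the 2 mature sequences had widely different fold changes in dcl1-9. The levels are of the sequences and not of these loci, and whether they relate to the hairpins was not tested. The spans run from the first to the last base of the 2 annotated arms (chromosome 5, 2634936 to 2635019, minus strand, and chromosome 4, 10578652 to 10578757, plus strand). The mature miRNA is in capitals.
miR162a hairpin: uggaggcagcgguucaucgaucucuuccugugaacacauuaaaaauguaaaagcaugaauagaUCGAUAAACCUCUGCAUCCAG
miR168a hairpin: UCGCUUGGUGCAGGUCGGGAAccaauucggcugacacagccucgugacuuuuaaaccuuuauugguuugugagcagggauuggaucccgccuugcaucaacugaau
miR162 comes from the 3′ arm, as do miR403 and miR838, and miR168 from the 5′ arm. The arms are 41 bases apart in miR162a, 44 in miR162b, 64 in miR168a, 49 in miR168b and 55 in miR403. In the fold of lowest free energy, 17 of the 21 mature bases were paired in miR162a and 18 of 21 in miR168a, with -35.4 and -49.0 kcal/mol over the spans shown.

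The sites in the target mRNAs were searched over 31342 genes with an annotated mRNA, with a penalty of 1 for a mismatch or a bulged site base and 0.5 for a G:U pair. Bases of the site that do not form a Watson-Crick pair with the miRNA are in capitals, and the sites are shown because they tie each miRNA to its gene.
miR162 site in DCL1: cuggaugcagagguAuuaucga
miR168 site in AGO1: uucccgaGcugcaUcaagcUa
miR403 site in AGO2: Ggaguuugugcgugaaucuaa
miR403 site in AGO3: GgaUguuugugcgugaaucuaa
For miR162 no gene had a lower penalty than DCL1, where 21 bases paired around 1 bulged base. That site lies in the coding sequence and crosses a splice junction, with 12 bases at the end of exon 12 and 10 at the start of exon 13 (chromosome 1, 27522 to 27627). It is whole in 1 of the 2 annotated DCL1 transcripts, since exon 12 ends 3 bases later in the other. For miR168 the best site of all genes was that in the coding sequence of AGO1 (chromosome 1, 17891529 to 17891549, minus strand), with 18 bases paired, 1 G:U pair and 2 mismatches. For miR403 the best site was that in the 3′ UTR of AGO2 (chromosome 1, 11185223 to 11185243), with 20 bases paired, and the next best that in the 3′ UTR of AGO3 (chromosome 1, 11192398 to 11192419), the neighbouring Argonaute gene. For miR838, DCL1 was no outstanding match, as 64 genes had a lower penalty. The miR838 precursor of 207 bases lies wholly within intron 14 of DCL1, which has 276 bases, downstream of the exons that hold the miR162 site.

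**Figure D1:**
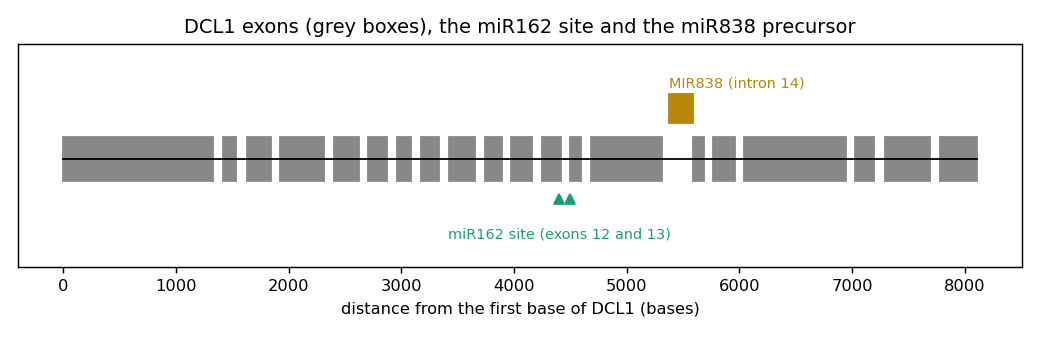
The DCL1 gene drawn to scale from its first annotated base (x axis, bases), with the 20 exons of the transcript that holds the whole miR162 site as grey boxes. Triangles mark the 2 parts of the miR162 site in exons 12 and 13, and the gold box marks the 207-base miR838 precursor in intron 14.

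The miRNA reads of the libraries differed widely in amount. Counting only the largest member of each family, they made up 11.3% of the library total in cdf2, 0.849% in dcl1-9 and 19.0% in Col. Levels are given as RPM, the reads of a miRNA scaled to a common library size by the library totals in the deposited tables, which are 14406060 for cdf2, 9443719 for dcl1-9 and 14073145 for Col, so that 1 read stands for 0.0694, 0.106 and 0.0711 RPM in that order. Neither DCL1, AGO1 nor AGO2 mRNA was measured in these libraries, so no statement on the targets can be drawn from them.

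miR168, the AGO1 regulator, was the most abundant of these miRNAs in every library. The miR168a row held 82578 reads in cdf2, 17206 in dcl1-9 and 129349 in Col, which are 5732, 1822 and 9191 RPM. Among families ranked by their largest member, miR168 stood sixth in cdf2, second in dcl1-9 and sixth in Col. It made up 5.09% of the miRNA reads in cdf2, 21.5% in dcl1-9 (95% Clopper-Pearson interval 21.2 to 21.7%) and 4.85% in Col (4.82 to 4.87%), with 1 member counted per family. Only miR166 held more miRNA reads in dcl1-9, at 45.4%, and its share was also higher there than the 18.5% in Col.

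miR403 stood between miR168 and miR162 in each library. Its row held 6664 reads in cdf2, 14 in dcl1-9 and 9351 in Col, which are 463, 1.48 and 664 RPM. The Poisson interval of the dcl1-9 level was 0.810 to 2.49 RPM, far under the other 2 libraries. Its family rank was 15 in cdf2, 24 in dcl1-9 and 15 in Col.

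miR162, the DCL1 regulator, was less abundant than the regulator of AGO2. The miR162a row held 1587 reads in cdf2, 7 in dcl1-9 and 2050 in Col, which are 110, 0.741 and 146 RPM. With so few reads in dcl1-9 the interval there was 0.298 to 1.53 RPM, and it overlaps that of miR403. Its family rank was 19 in cdf2, 31 in dcl1-9 and 20 in Col.

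miR838, the miRNA inside DCL1, was hardly seen. It had 1 read in cdf2, 0 in dcl1-9 and 3 in Col. None of these exceeds 3 reads, taken here as the limit that a count of 0 allows, which is 0.208 RPM in cdf2, 0.318 in dcl1-9 and 0.213 in Col. No difference in miR838 was detectable at this depth, and no fold is given for it.

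**Figure D2:**
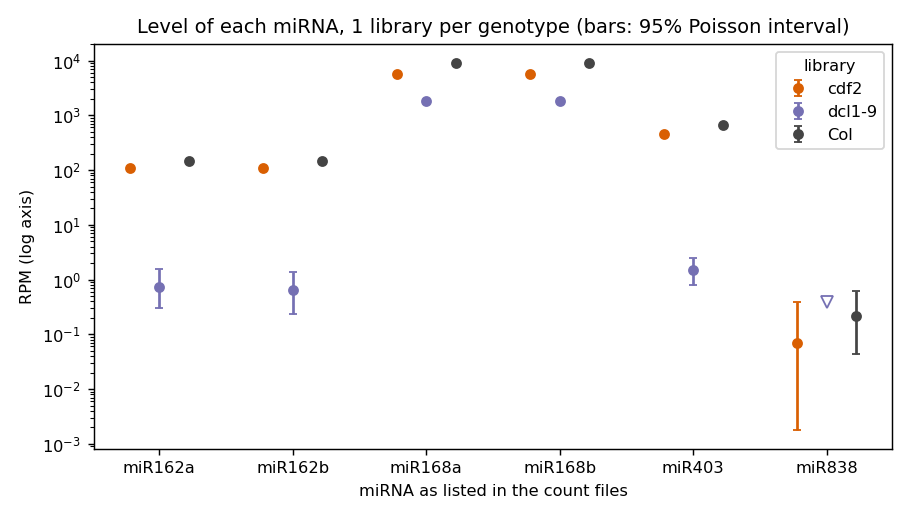
RPM on a log axis for each of the 6 listed miRNAs, with the cdf2, dcl1-9 and Col libraries as coloured points and 95% Poisson intervals as bars. miR168a stays at 1822 RPM or more in all 3 libraries, while miR162 and miR403 lie near 1 RPM in dcl1-9. The open triangle is the upper end of the 95% Poisson interval (0.391 RPM) for miR838 in dcl1-9, where it had no read.

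The a and b rows gave no separate measurements. miR162a and miR162b differed by 2 reads in cdf2, 1 in dcl1-9 and 1 in Col, and miR168a and miR168b by 219, 24 and 191 reads in that order, at most 0.265% of the miR168 counts. As reads of these sequences cannot be assigned to 1 locus, the a and b rows are not independent counts, and counting error does not measure their difference. Since the sequences are identical, each pair was taken as 1 miRNA, with the larger row as its count.

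The first comparison, cdf2 against Col, addressed whether CDF2 affects the accumulation of miRNAs. The 5 listed miRNAs with enough reads were lower in cdf2 with the deposited library totals, by modest amounts, and higher when either sum of miRNA reads was the scale. miR168a had a fold change of 0.624 (95% Clopper-Pearson interval 0.618 to 0.629), a level 1.60-fold lower in cdf2, and miR168b of 0.623. miR403 had a fold change of 0.696 (0.675 to 0.718) and miR162a of 0.756 (0.708 to 0.808), neither of which reached 1.5-fold. Of the 5 listed miRNAs that reached 10 reads over both libraries, 2 had a level at least 1.5-fold lower in cdf2 and 0 a higher one, and these 2 rows are the same miR168 sequence. Over all miRNAs tested, 35.2% of 230 were lower by that much and 16.5% higher, so the members' share was near that of miRNAs in general. The median log2 fold change over the 230 was -0.33, against -0.68 for miR168a, -0.52 for miR403 and -0.40 for miR162a.

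Rows of conserved families leaned the same way as all miRNAs in cdf2 with the deposited totals. Of 86 such rows tested, 43 had a level at least 1.5-fold lower and 12 a higher one, against 81 and 38 of the 230 miRNAs in all, and their median log2 fold change was -0.57. Many rows of the same family, such as miR166b to miR166g, hold nearly the same counts, so the rows are not all separate measurements. Among 117 miRNAs that reached 100 reads in Col, 81 had a higher fold change than miR168a, 74 than miR403 and 60 than miR162a. The lower levels in cdf2 rest on the library totals. miR168a had fold changes of 0.594 with the published read totals, 0.705 with edgeR's TMM, 0.780 with DESeq2's size factors, 1.05 with miRNA reads counted once per family and 1.07 with all miRNA reads. No member was at least 1.5-fold different under the last 4 of these scales.

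The second comparison, dcl1-9 against Col, served in the study as a control for loss of miRNA processing. miR162 and miR403 were almost lost in dcl1-9, while miR168 was reduced far less with the deposited totals and was higher when scaled to miRNA reads, by TMM or by DESeq2. For miR403, 14 reads against 9351 gave a level 448-fold lower in dcl1-9 (95% Clopper-Pearson interval 267 to 820). For miR162a, 7 reads against 2050 gave a level 197-fold lower (95.2 to 489), and for miR162b, 6 reads gave 229-fold (105 to 625). For miR168a, 17206 reads against 129349 gave a fold change of 0.198 (0.195 to 0.201), 5.04-fold lower in dcl1-9. All 5 of the 5 listed miRNAs with enough reads were at least 1.5-fold lower, but so were 98.5% of the 202 miRNAs tested, so that the count says nothing particular about them.

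With counts of 3 or fewer set to 3 reads, the losses lay near opposite ends of the range of the same 117 miRNAs. On that footing, 9 had a higher fold change than miR168a, 1 of them miR168b. By contrast, 100 had a higher fold change than miR162a and 110 than miR403. Rows with fewer than 3 reads in dcl1-9 are placed higher than their own counts would put them. For example, miR158b, with 0 reads in dcl1-9 against 624 in Col, counts among those above miR162a. A row with that many Col reads or fewer could not fall below miR162a or miR403 on this footing, even at 0 reads. The counts of 100 and 110 were thus fixed in part by the Col reads, and do not rank the losses. The median of these 117 was 40.7-fold lower in dcl1-9, with 36 of them set to the limit of 3 reads because they had 3 or fewer. miR168a stood 8.07-fold above that median, miR162a 4.83-fold below it and miR403 11.01-fold below it. These distances do not depend on the library totals. Setting counts to 3 reads can only make a loss look smaller, so the median loss is 40.7-fold or more. The distances of miR162a and miR403 below the median are therefore at most those given, and that of miR168a above it at least that given. Over all 202 miRNAs tested, of which 108 were at or under the limit of 3 reads, the median log2 fold change was -3.70. Over 82 tested rows of conserved families, of which 36 were at or under it, the median was -4.42. Both medians lie between the values of miR168a (-2.33) and miR162a (-7.62). With so many rows set to the limit, neither median measures a typical loss, and nor does that of the 117.

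The direction for miR168 depends on the library scale, while those for miR162 and miR403 do not under the scales tried. With the published read totals miR168a had a fold change of 0.117. With TMM, DESeq2's size factors, or either sum of miRNA reads it was between 3.10 and 4.43, that is higher in dcl1-9. Those scales are set by the miRNA reads themselves, so a shift common to most miRNAs does not show in them. Whether that shift was a loss of miRNAs or a difference in library make-up was not tested. Under all 6 scales miR162a stayed at 0.114 or below and miR403 at 0.0499 or below.

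**Figure D3:**
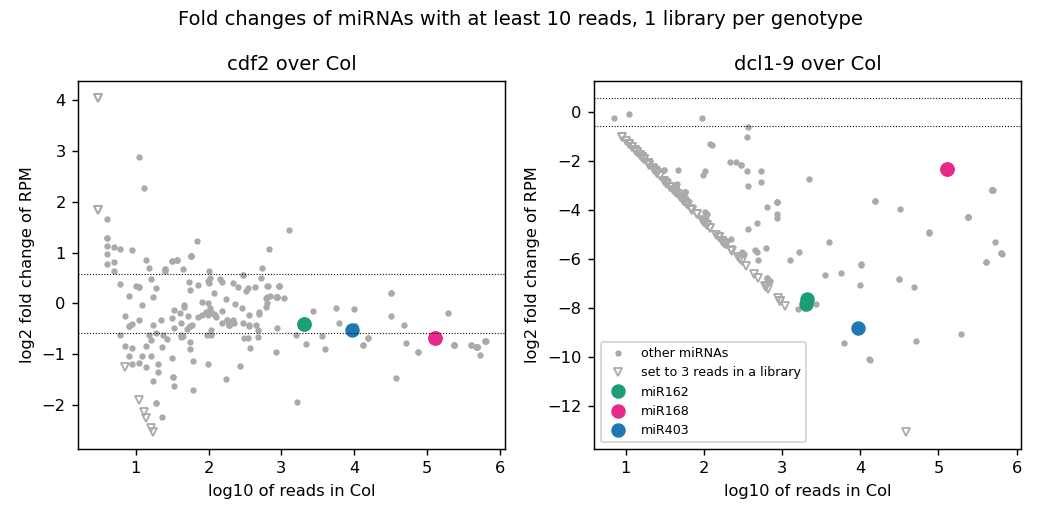
log2 fold change of RPM against log10 of the Col reads for every miRNA that reached 10 reads over both libraries, with cdf2 over Col on the left and dcl1-9 over Col on the right, dotted lines at 1.5-fold, and counts of 3 or fewer set to 3 reads (open triangles). With the deposited totals used here, in dcl1-9 miR168 (-2.33, above 0 when scaled to miRNA reads, by TMM or by DESeq2) lies above most abundant miRNAs, while miR162 (-7.62 for miR162a) and miR403 (-8.81) lie near the bottom. Rows with fewer than 3 reads in dcl1-9 are drawn above their measured fold change. Rows with few Col reads could therefore not lie as low, whatever their loss, and these low places rest in part on that setting.

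Ratios between these miRNAs within a library are free of the library totals. There were 52.0 reads of miR168 for each read of miR162 in cdf2 (95% Clopper-Pearson interval 49.5 to 54.6), 2458 in dcl1-9 (1193 to 6115) and 63.1 in Col (60.4 to 65.9). The AGO1 regulator thus outnumbered the DCL1 regulator 39.0-fold more in dcl1-9 than in Col (95% interval of the exact conditional odds ratio 18.9 to 97.0). In cdf2 the same ratio was 0.824 of that in Col (0.771 to 0.880). This is a difference beyond counting error, in the direction opposite to dcl1-9.

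For miR168 against miR403 the ratio was 12.4 in cdf2 (12.1 to 12.7), 1229 in dcl1-9 (732 to 2248) and 13.8 in Col (13.5 to 14.1). It was 88.8-fold higher in dcl1-9 than in Col (52.9 to 163) and 0.896 of the Col ratio in cdf2 (0.867 to 0.926). miR403 and miR162 were lost to amounts that could not be told apart. There were 4.19 reads of miR403 for each of miR162 in cdf2 (3.97 to 4.43), 2.0 in dcl1-9 (0.755 to 5.86) and 4.56 in Col (4.35 to 4.79). The dcl1-9 ratio was 0.438 of that in Col with an interval of 0.165 to 1.29, which includes 1, at 14 and 7 reads.

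**Figure D4:**
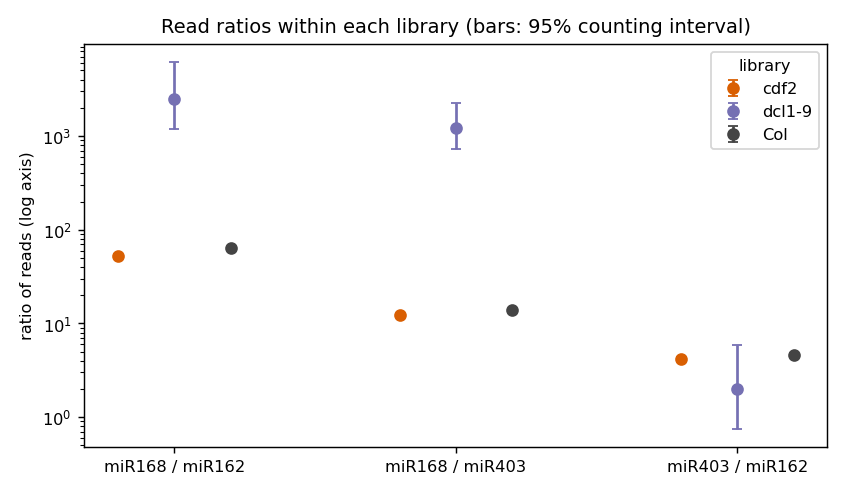
Ratio of reads within each library (log axis) for 3 pairs of miRNAs, with cdf2, dcl1-9 and Col as coloured points and 95% Clopper-Pearson intervals as bars. Both ratios with miR168 on top are at 1229 or more in dcl1-9 and at 63.1 or less in cdf2 and Col, while the ratio of miR403 to miR162 is 2.0 in dcl1-9 with an interval that reaches those of the other libraries.

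The miRNAs next to them in the Col ranking, the 2 above and the 2 below each, give the scale of these differences. Around miR162a stood miR822 (218 reads in dcl1-9 against 2178 in Col, 6.70-fold lower in dcl1-9), miR780.2 (8 against 2708, 227-fold), miR780.1 (5 against 1918, 257-fold) and miR164c (21 against 1654, 52.9-fold). Neighbours with like counts in Col thus varied from 6.70-fold to 257-fold. Around miR168a stood miR156e (8221 reads in dcl1-9 against 236707 in Col, 19.3-fold), miR158a (243 against 193012, 533-fold), miR165a (1691 against 76644, 30.4-fold) and miR165b (1699 against 75983), all with a larger loss than miR168a. Around miR403 stood miR164a (94 reads in dcl1-9 against 10264 in Col, 73.3-fold), miR5026 (50 against 10024, 135-fold), miR173 (6 against 6143, 687-fold) and miR161.2 (40 against 5608, 94.1-fold), and only miR173 among these 4 had a larger loss than miR403.

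The rows nearest to each member over both fold changes were also listed, as distances on the log2 scale among 199 miRNAs, over 3 libraries. Nearest to miR162a were miR159c (0.08), miR780.2 (0.34) and miR157d (0.48), and nearest to miR403 were miR158a (0.41), miR156h (0.59) and miR173 (0.63). miR159c had 1 read in dcl1-9 and was set to 3 reads for this distance. The 3 rows nearest to miR168a, which were miR169c, miR783 and miR851-5p, had 0, 1 and 0 reads in dcl1-9 against 27 or fewer in Col, so their fold changes are set by the limit and not by measured levels.

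The miRNAs that start trans-acting siRNA production, another branch of the silencing machinery, were followed for comparison. miR390a and miR390b, which act with AGO7 on TAS3 transcripts, share nearly the same counts. miR390a had 9820 reads in cdf2, 844 in dcl1-9 and 15454 in Col, a fold change of 0.621 in cdf2 and a level 12.3-fold lower in dcl1-9. miR173, the trigger for TAS1 and TAS2, had 4784, 6 and 6143 reads in the same order, 0.761 in cdf2 and 687-fold lower in dcl1-9. miR828 had no read in any library. Of the 3 of these 4 rows with enough reads, 2 were at least 1.5-fold lower in cdf2 and 3 in dcl1-9, and both counts hold the 2 miR390 rows. Over all miRNAs tested 35.2% were that much lower in cdf2 and 98.5% in dcl1-9, so these counts say nothing particular about the group.

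**Figure D5:**
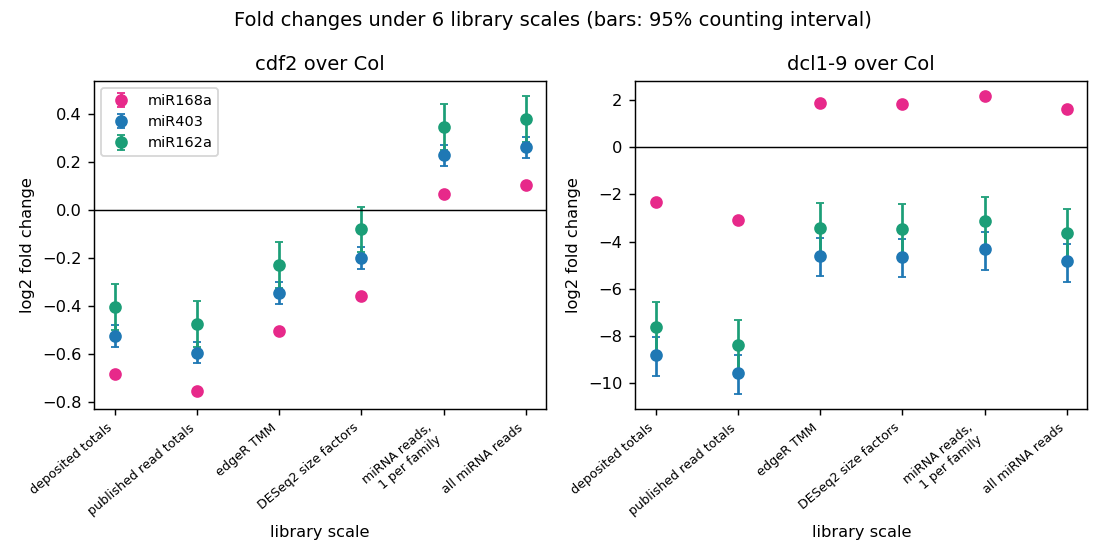
log2 fold changes of miR168a, miR403 and miR162a in cdf2 (left) and dcl1-9 (right) over Col under 6 library scales, with 95% counting intervals as bars. The spacing between the miRNAs is the same under every scale, all 3 pass above 0 in cdf2 with both sums of miRNA reads, and in dcl1-9 only miR168a passes above 0.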

How the data were processed

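Small RNAs were isolated from seedlings and sequenced on the Illumina platform. The authors removed adaptors, used Bowtie to map reads against miRBase 15 hairpins, identified known miRNAs with database version 16, and deposited raw counts per miRNA. Their deposited tables also give RPM values, which are the counts listed there over a library total in the same table. For dcl1-9, 23 Col rows there carry names that the Col count file does not list, and 0 rows of the same name differ in count. What that total counts is not named. The fold changes and p-values in those tables are the authors' own comparisons and were not used.

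Counts were scaled here to RPM by the deposited totals. The dcl1-9 rows were joined to Col by name, 306 in all, 14 of them through a later name. A miRNA was tested where it reached 10 reads over both libraries, and counted as different at 1.5-fold or more. Intervals are at 95% and cover counting error only, since there is 1 library per genotype. Reads carry no molecular identifiers, so copies of the same molecule cannot be told apart, and the intervals may be too narrow. Counts of 3 or fewer were set to 3 in medians, distances and ranks of fold changes. Alternatives were the published read totals, 2 sums of miRNA reads, DESeq2 1.42.0, edgeR 4.0.16 (TMM), 1 read added, no read minimum, and identical rows of a family once. The interval and call code was tested on simulated data. Hairpins were folded with ViennaRNA 2.7.2. Named besides the members were the 3 nearest rows, the 2 rows above and below in the Col rank and the listed pathway rows. No row of these families carries a star name in cdf2 or Col. Names in dcl1-9 carry no star at all, so star rows could not be sought by name there. The members and lists were chosen with earlier results of these data known. Labels name TAIR10 as the build, and coordinates here are those of TAIR10.1, since the files hold none.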

Additional observations from a re-analysis of the deposited data

How the results depend on the processing

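Changing the library total moved every log2 fold change by 1 amount per comparison, between -0.07 and 0.78 in cdf2 and between -0.76 and 4.48 in dcl1-9. With the sum of all miRNA reads, the fold changes in cdf2 over Col reversed to 1.30 for miR162a, 1.31 for miR162b, 1.07 for miR168a and miR168b and 1.20 for miR403. With miRNA reads counted once per family they reversed to 1.27, 1.28, 1.05, 1.05 and 1.17 in the same order. In dcl1-9, miR168a and miR168b reversed to 3.10 with the sum of all miRNA reads, 4.43 with reads once per family, 3.57 with DESeq2's factors and 3.65 with TMM. The number of members at least 1.5-fold different in cdf2, 2 with the deposited totals, was 0 with each of those 4 scales and 3 with the published read totals, where miR403 had 0.663. In dcl1-9 it was 5, and with those 4 scales 3 were lower and 2, the miR168 rows, higher. With no minimum of reads it was 3 in cdf2 and 6 in dcl1-9, since miR838 then counts with 3 or fewer reads. Among all miRNAs tested, 81 were at least 1.5-fold lower and 38 higher in cdf2. The lower ones numbered 16 with all miRNA reads, 17 once per family and 33 with DESeq2's size factors, and the higher ones 100, 96 and 65, and 59 with no minimum of reads. In dcl1-9, 199 were lower and 0 higher, against 120 to 125 lower and 51 to 61 higher with the 4 scales, and 6 higher with no minimum. Ratios within a library stayed inside their counting intervals with 1 read added and with the mean of the a and b rows. No paired analysis was possible because each genotype has 1 library, and for the same reason no replicate could be left out. The 7 and 14 reads in dcl1-9 limit what can be said of miR162 and miR403 there.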

Other observations

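The rows that kept more of their Col level in dcl1-9 than miR168a did, among those that reached 100 reads in Col, were looked up after the values were seen. Besides miR168b they were miR5642a (161 reads in dcl1-9 against 362 in Col), miR5642b (117 against 354), miR160a (33 against 121), miR160c (33 against 126), miR5659 (41 against 253), miR5635a (35 against 216), and miR5635b and miR5635c (45 against 299 each). miR160, which targets auxin response factor genes, is the conserved family among them, and was 2.46-fold lower for miR160a. The miR168a row held 129349 reads in Col, far more than any of these rows. Among rows with more Col reads than miR168a, miR166a (36431 reads in dcl1-9 against 493332) had a fold change of 0.110, against 0.198 for miR168a.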
